A study of Mus musculus with 4 samples.

Results

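The canonical Wnt pathway was followed through 10 genes in a mouse growth plate-like chondrocyte line, a cell culture model of the cartilage that lengthens bones. The genes were picked by symbol, and all 10 had a row in the deposited table of 24499 genes. They were the co-receptors Lrp5 and Lrp6, the receptors Fzd1, Fzd2 and Fzd7, the transducer Ctnnb1, the nuclear factors Lef1 and Tcf7, and the feedback inhibitors Axin2 and Nkd2. Wild-type cells were grown in a serum-containing medium with ascorbic acid, insulin, transferrin and selenium, with no other agent named, and RNA was taken on day 1, day 3, day 5 and day 10 of culture. Total RNA was sequenced after ribosomal depletion. The labels name a sort before RNA extraction without describing it, and they do not say whether the line is a single clone. They list 1 sample per day, while the table holds 4 libraries for each of days 3, 5 and 10, and libraries 1, 3 and 4 for day 1, 15 in all. Libraries are called by the numbers in the table. Separate cultures or animals are not stated for them, so each p-value below is about the spread among libraries of a day, and that spread may be technical.

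In canonical signalling a Wnt protein binds a Frizzled receptor together with LRP5 or LRP6, and a cytoplasmic complex built on Axin and APC then stops marking beta-catenin for destruction. Beta-catenin accumulates, enters the nucleus and switches on genes through the TCF/LEF family of DNA-binding proteins. In the growth plate the pathway is known for promoting chondrocyte hypertrophy and for favouring the osteoblast over the chondrocyte fate. Beta-catenin is controlled mainly as a protein, which RNA levels do not show.

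Values are CPM, reads per total reads of a library scaled by the authors' normalization factors, and the libraries held between 12492537 and 18841621 reads. A log2 difference compares day means of log2(CPM + 1), which understates changes near 0, and a gene was said to rise or fall at a Benjamini-Hochberg adjusted p under 0.05 in 1 limma fit of all 15 libraries. The fit took in the 12109 genes whose 4 day means averaged at least 1 CPM, including 9 of the 10 members. Axin2 did not reach this level, and Nkd2 reached it only through its day 10 values. The cartilage collagen Col2a1 was abundant, with an average of 5347 ± 5208 CPM on day 10 (SD, n = 4) and 3296 ± 239 CPM on day 1 (n = 3). Of 9 chondrocyte markers tested, Sox9 fell on days 5 and 10 against day 1 and Acan on day 5. Col11a2, Comp and Matn1 rose on both days. Ptprc and Adgre1, which mark white blood cells and macrophages, were at 0 on day 10. The 6 macrophage and osteoclast markers together held 19.8 to 50.9 CPM on day 10, most in libraries 1 and 2, against 12.5 to 13.7 CPM on day 1. Of the 2 that were tested, Ctsk, a protease of osteoclasts that other cells also make, rose on days 5 and 10, and its part in the members' results was not tested. The summed level of 5 endothelial markers never passed 0.753 CPM. Libraries 1 and 2 of day 10 stood apart from libraries 3 and 4 in Bglap, Sp7, Ibsp and Alpl, genes of bone formation. They also did so in the summed level of 6 prehypertrophic and hypertrophic chondrocyte markers. The summed level of the 10 osteoblast and osteocyte markers listed did not divide the libraries in this way, since library 4 lay above library 1. Members' results that rest on libraries 1 and 2 of day 10 are given with and without them.

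Windows at listed starts of Tcf7, Axin2 and Nkd2 are shown because these members were highest in the same pair of libraries. That of Fzd7 is shown because it is the receptor called against day 1 on every later day. Each window runs over 250 bases before to 50 after the RefSeq start on GRCm38.p6, on the strand of the gene. The windows lie at chr11:52282965-52283264 (minus strand, first of 2 Tcf7 starts, either of which the cells might use), chr11:108920099-108920398 (plus, Axin2), chr13:73847582-73847881 (minus, Nkd2) and chr1:59481897-59482196 (plus, Fzd7). Capitals mark a match to a TCF/LEF core.
Tcf7: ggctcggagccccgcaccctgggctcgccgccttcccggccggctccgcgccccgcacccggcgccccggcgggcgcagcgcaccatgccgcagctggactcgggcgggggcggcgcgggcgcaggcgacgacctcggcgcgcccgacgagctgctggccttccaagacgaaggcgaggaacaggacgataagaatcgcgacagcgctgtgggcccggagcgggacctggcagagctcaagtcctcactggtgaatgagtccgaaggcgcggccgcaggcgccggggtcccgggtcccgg
Axin2: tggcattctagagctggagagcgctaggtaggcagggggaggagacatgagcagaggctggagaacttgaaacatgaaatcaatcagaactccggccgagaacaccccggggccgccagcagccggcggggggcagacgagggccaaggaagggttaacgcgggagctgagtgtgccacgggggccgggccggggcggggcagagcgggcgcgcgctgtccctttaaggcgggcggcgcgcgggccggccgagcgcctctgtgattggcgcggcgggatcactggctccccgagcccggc
Nkd2: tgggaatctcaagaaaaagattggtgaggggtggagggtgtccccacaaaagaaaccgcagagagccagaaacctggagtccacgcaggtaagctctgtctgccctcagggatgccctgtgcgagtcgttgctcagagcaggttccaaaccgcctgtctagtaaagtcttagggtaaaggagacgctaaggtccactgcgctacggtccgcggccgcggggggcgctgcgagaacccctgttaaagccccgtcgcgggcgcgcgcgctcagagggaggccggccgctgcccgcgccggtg
Fzd7: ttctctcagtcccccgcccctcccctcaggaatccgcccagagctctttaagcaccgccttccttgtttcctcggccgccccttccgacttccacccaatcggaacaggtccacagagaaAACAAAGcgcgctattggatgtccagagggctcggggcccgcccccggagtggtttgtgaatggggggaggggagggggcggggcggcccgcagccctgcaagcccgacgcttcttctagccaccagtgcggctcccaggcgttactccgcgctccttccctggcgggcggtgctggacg
The letters searched were CTTTG followed by AA, TT, AT or TA, on both strands, and these motifs share their first letters with each other. The Fzd7 window held the form ending in TT on the strand opposite to the gene, at position -130 from the start, and no letters of this set were found in the Tcf7, Axin2 and Nkd2 windows. From its first atg to its end the Tcf7 window reads as codons without a stop. Much of it may thus be coding sequence of a longer transcript, and the absent match says nothing of the promoter in use. RefSeq windows were matched for 7 of the 10 members, 12 windows in all, and 2 of these held a match, the other being the fourth of the Lef1 starts at position -147. Among all 32851 mouse windows of this length, 16.9% held a match, and among 9256 tested genes with a window, 13.5% did. No window was matched for Fzd2, Lrp5 or Lrp6.

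**Figure D1:**
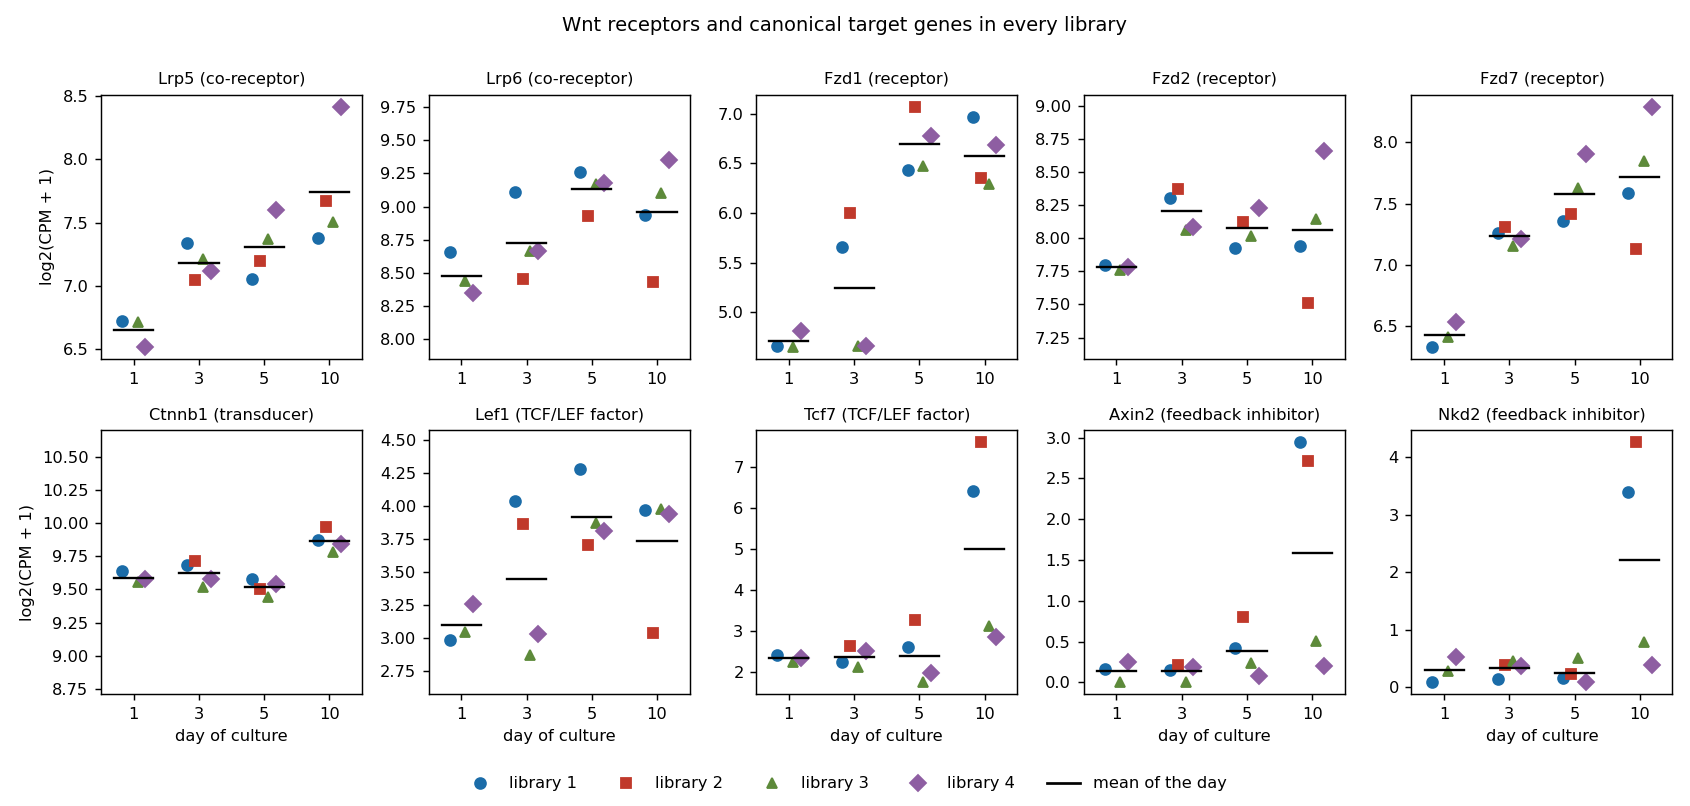
Level of each of the 10 members in every library, as log2(CPM + 1), against day of culture; symbols give the library number, bars the mean of the day, and each panel has its own scale. Fzd1, Fzd7 and Lrp5 were higher in every library of days 5 and 10 than in any of day 1, whereas Tcf7, Axin2 and Nkd2 were high in libraries 1 and 2 of day 10. Of all genes tested, 30.0% lay wholly above day 1 on day 5 and 25.4% on day 10.

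Among the receptors and co-receptors, Lrp5, Lrp6, Fzd1 and Fzd7 rose in comparisons given below, and Fzd2 did not pass the test in any. A share of all genes over the 6 comparisons together was not taken, so each comparison is given by itself. On day 3 against day 1, 1 of the 9 members tested rose, where 15.7% of all genes tested rose and 16.1% fell. On day 5 against day 1, 5 members rose, where 25.2% of all genes rose and 24.8% fell. On day 10 against day 1, 6 members rose, where 24.3% of all genes rose and 25.1% fell. They include Nkd2, which entered the test only through the day on which it was high, so its call adds no support. Without libraries 1 and 2 of day 10 the count was also 6, with Lrp6, Fzd2 and Lef1 called and Ctnnb1, Tcf7 and Nkd2 not. No member fell in any of the 6 comparisons between days. The comparisons against day 1 share its 3 libraries. All 6 markers of dividing cells fell on days 5 and 10 against day 1, and their part in the members' results was not tested. In bulk RNA, more cells of a type and more RNA per cell cannot be told apart.

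Fzd7, a Frizzled receptor for Wnt ligands and a gene with a single exon (chr1:59482424-59486955, plus strand), was the 1 member called on day 3 against day 1. It had 79.4, 84.3 and 91.6 CPM in the libraries of day 1, and 152.7, 157.4, 141.4 and 147.4 CPM in those of day 3. It had 163.2, 169.7, 196.6 and 238.3 CPM on day 5, and 191.5, 139.0, 229.9 and 312.4 CPM on day 10. No library of a later day overlapped with day 1, day 5 lay above day 3 without overlap, and day 10 overlapped with both. The log2 difference from day 1 was 0.81 ± 0.20 (SE) on day 3 (limma adjusted p = 0.00729), 1.15 ± 0.20 on day 5 (adjusted p = 0.000275) and 1.29 ± 0.20 on day 10 (adjusted p = 0.000111). The day 3 call was lost without all libraries numbered 1 (0.75, adjusted p = 0.0929) and without all numbered 3 (0.83, adjusted p = 0.0753). Day 10 differed from day 3 by 0.48 ± 0.19, with an adjusted p of 0.0755.

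Fzd1, another receptor of the family (chr5:4753839-4758035, minus strand, 1 exon), changed most among the receptors, and mainly between days 3 and 5. Its day 1 libraries held 24.3, 24.1 and 27.0 CPM. On day 3 libraries 1 and 2 stood at 49.5 and 63.0 CPM, but libraries 3 and 4 at 24.2 and 24.4 CPM. Libraries 3 and 4 of day 3 thus lay within the range of day 1. Day 5 gave 85.3, 133.6, 88.2 and 108.9 CPM, and day 10 gave 124.1, 81.0, 77.2 and 102.0 CPM. The difference from day 1 was 1.98 ± 0.29 on day 5 (limma adjusted p = 5.71e-05) and 1.87 ± 0.29 on day 10 (adjusted p = 9.54e-05). Fzd1 was the 1 member that rose on day 5 against day 3, by 1.45 ± 0.27 (adjusted p = 0.00531), where 5.1% of all genes rose and 4.03% fell. In libraries 1 and 2 alone that difference was 0.92 (adjusted p = 0.696). A difference of day 10 from day 5 was not detectable (-0.12 ± 0.27, adjusted p = 0.823).

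Fzd2 (chr11:102604396-102608058, plus strand, 1 exon) was the most abundant Frizzled per length and did not pass the test. Its libraries held 221.5, 215.4 and 219.6 CPM on day 1 and 315.9, 331.2, 266.3 and 270.4 CPM on day 3. They held 242.9, 278.2, 257.7 and 299.4 CPM on day 5, and 245.0, 181.3, 282.2 and 404.7 CPM on day 10. Library 2 of day 10 was the lowest of all 15 and library 4 of the same day the highest. The difference from day 1 was 0.43 ± 0.19 on day 3 (limma adjusted p = 0.103), 0.29 ± 0.19 on day 5 (adjusted p = 0.216) and 0.29 ± 0.19 on day 10 (adjusted p = 0.231). Without libraries 1 and 2 of day 10 that last difference was 0.62 (adjusted p = 0.00466).

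Lrp5, the co-receptor in which human loss-of-function variants lower bone mass (chr19:3584828-3686564, minus strand), had a higher mean on each day than on the day before it. It had 104.7, 103.9 and 90.7 CPM on day 1, then 161.1, 131.2, 147.6 and 137.7 CPM on day 3. Its values were 131.7, 145.4, 164.4 and 193.4 CPM on day 5 and 165.5, 202.7, 180.9 and 340.7 CPM on day 10. All libraries of the later days lay above those of day 1, and library 4 of day 10 lay far above the rest. The difference from day 1 was 0.53 ± 0.20 on day 3 (limma adjusted p = 0.0541), 0.65 ± 0.20 on day 5 (adjusted p = 0.013) and 1.09 ± 0.20 on day 10 (adjusted p = 0.000377). With the library number as a block, the day 3 difference passed the test at 0.56 ± 0.20 (adjusted p = 0.0366), which made 2 members called there, against 19.8% of all genes called higher in that fit. Day 10 was above day 3 by 0.56 ± 0.18 (adjusted p = 0.039), a call lost under 13 of 32 alternatives. Without library 4 of day 10 it was 0.34 (adjusted p = 0.075). The day 5 call was lost without library 4 of day 1 (0.59, adjusted p = 0.0562).

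Lrp6, the second co-receptor (chr6:134446476-134566965, minus strand), had 402.4, 344.6 and 323.6 CPM on day 1 and 552.4, 349.7, 404.8 and 405.4 CPM on day 3. It reached 612.7, 486.0, 575.7 and 579.1 CPM on day 5, and had 488.4, 343.8, 549.6 and 651.8 CPM on day 10. Day 5 was the only day without overlap with day 1, and it rose by 0.66 ± 0.19 (limma adjusted p = 0.0109), or by 0.59 without library 4 of day 1 (adjusted p = 0.0504). The day 10 difference of 0.48 ± 0.19 narrowly missed the threshold (adjusted p = 0.0522), and without library 2 of day 10 it was 0.65 (adjusted p = 0.00458).

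**Figure D2:**
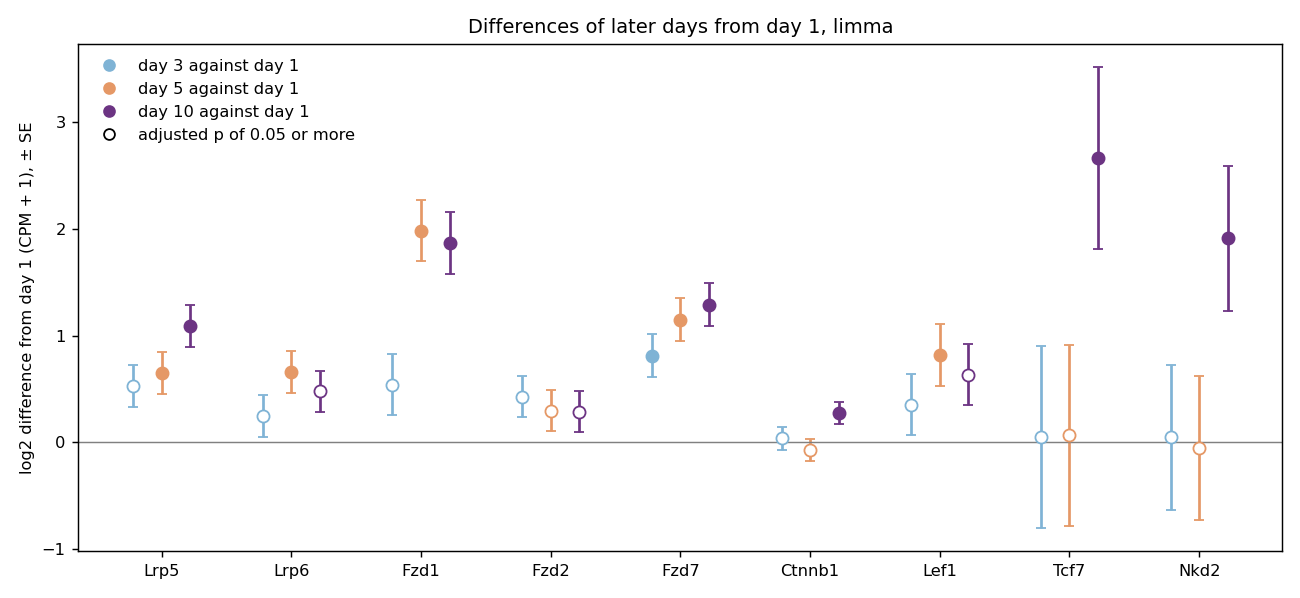
Log2 difference of CPM + 1 of day 3, day 5 and day 10 from day 1 for the 9 members tested, with standard errors from limma; filled circles passed the adjusted p threshold and open circles did not. Fzd1 and Fzd7 lie highest among the receptors on days 5 and 10, and Tcf7 and Nkd2 depart from 0 on day 10, with the widest errors.

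Per kilobase of annotated exon, the family of Frizzled genes became more mixed. The summed level of the 10 Frizzled genes was 109.7 ± 2.1 CPM per kb on day 1, 165.8 ± 22.1 on day 3, 196.2 ± 20.1 on day 5 and 207.2 ± 58.1 on day 10 (SD, n = 3, 4, 4 and 4). Fzd2 made up 54.5% ± 0.89 of it on day 1, 48.9% ± 1.4 on day 3, 37.5% ± 0.69 on day 5 and 36.3% ± 2.1 on day 10, with no overlap between the libraries of day 1, those of day 3 and those of days 5 and 10. Fzd1 held 11.5% ± 3.4 on day 10 and 5.46% ± 0.25 on day 1, and Fzd7 held 23.0% ± 1.6 on day 10 and 17.1% ± 1.0 on day 1. Fzd8, a further receptor, held 11.7% ± 1.8 on day 10 and 7.31% ± 0.54 on day 1. No read was counted for Fzd10 in any library. These shares are descriptions without a test, and they use the exons annotated for each gene, not the transcripts made.

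**Figure D3:**
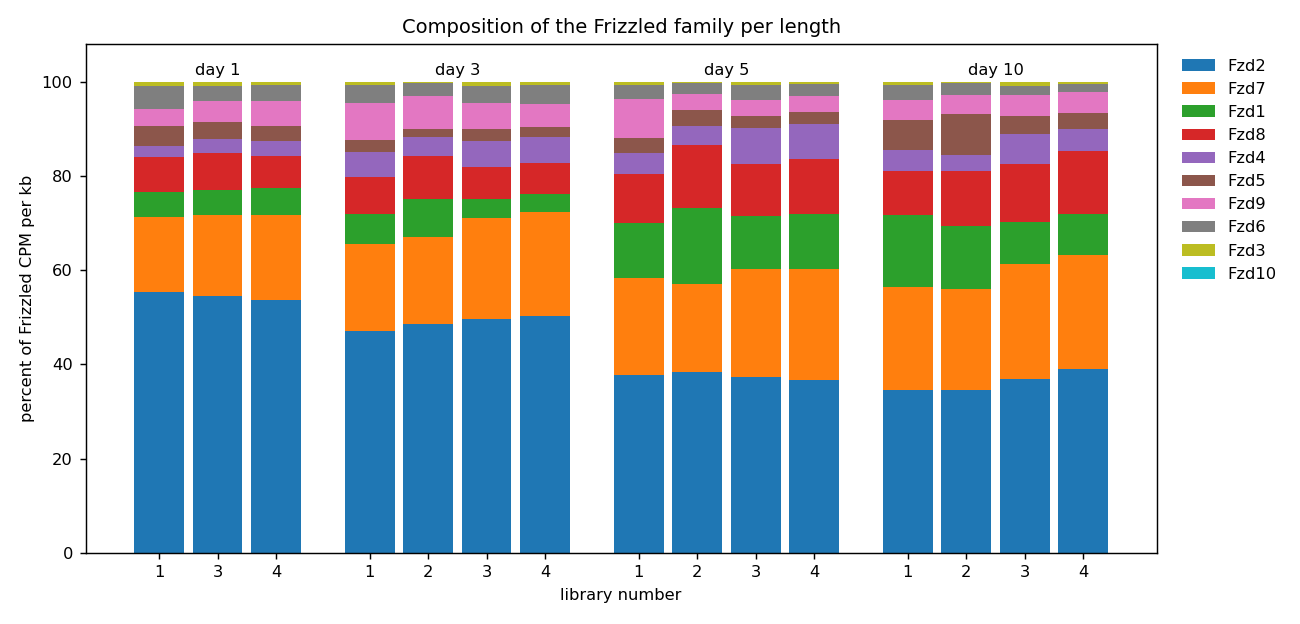
Share of each Frizzled gene in the family's summed CPM per kilobase of exon, in percent, for every library by day. The Fzd2 block shrinks in every library of days 5 and 10 compared with day 1, while the Fzd1, Fzd7 and Fzd8 blocks widen.

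Ctnnb1 encodes beta-catenin, which carries the signal into the nucleus and also links cadherins to actin at cell junctions (chr9:120929216-120960507, plus strand). It was the most abundant member per length on every day, at 179.7 ± 9.9 CPM per kb on day 10 and 148.2 ± 4.4 on day 1 (SD, n = 4 and 3). Its libraries held 794.7, 750.9 and 762.9 CPM on day 1, 822.6, 840.7, 734.0 and 764.4 CPM on day 3, and 764.0, 724.5, 694.9 and 745.1 CPM on day 5. On day 10 they held 937.4, 1001, 878.0 and 916.2 CPM, each above every library of the earlier days. The difference was small, at 0.28 ± 0.10 for day 10 against day 1 (limma adjusted p = 0.0388) and 0.35 ± 0.10 for day 10 against day 5 (adjusted p = 0.0474). On day 10 against day 5 it was the 1 member that rose, where 3.75% of all genes rose and 2.02% fell. The call against day 1 was lost under 18 of 32 alternatives and that against day 5 under 22. Scaled by total count in place of the authors' factors, the difference from day 1 was 0.20 (adjusted p = 0.138). Without library 2 of day 10 it was 0.24 (adjusted p = 0.0791), without library 1 of day 10 it was 0.27 (adjusted p = 0.0673), and without library 3 of day 1 it was 0.26 (adjusted p = 0.116). The counting strand is not given in the sources used here, and 759 of the 5192 exon bases of Ctnnb1 overlap Ulk4 on the other strand, so reads there cannot be told apart.

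Lef1, a TCF/LEF factor that is also a target of the pathway (chr3:131110471-131224356, plus strand), was modestly higher on later days. Its libraries held 6.95, 7.27 and 8.60 CPM on day 1. On day 3, libraries 1 and 2 were at 15.4 and 13.5 CPM and libraries 3 and 4 at 6.32 and 7.19 CPM, the same division by library number as for Fzd1. On day 5 the values were 18.4, 12.0, 13.7 and 13.1 CPM, and on day 10 they were 14.7, 7.23, 14.8 and 14.4 CPM. Day 5 was free of overlap with day 1 and rose by 0.82 ± 0.29 (limma adjusted p = 0.0274), though not without library 1 of day 5, at 0.70 (adjusted p = 0.0747), nor without library 1 or 3 of day 1, at 0.76 (adjusted p = 0.0825) and 0.79 (adjusted p = 0.0738). Day 10 differed from day 1 by 0.63 ± 0.29 (adjusted p = 0.0796), and by 0.86 without its library 2 (adjusted p = 0.013). Of the 8788 exon bases of Lef1, 1208 overlap the antisense gene Gm43352.

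Tcf7, which encodes TCF1, a TCF/LEF factor, was high in 2 libraries of day 10. It was at 4.39, 3.74 and 4.08 CPM on day 1, 3.76, 5.27, 3.42 and 4.70 CPM on day 3, and 5.12, 8.64, 2.38 and 2.94 CPM on day 5. On day 10 libraries 1 and 2 held 84.9 and 194.8 CPM, and libraries 3 and 4 held 7.69 and 6.33 CPM. All 4 lay above every library of days 1 and 3, but by very different amounts. Day 10 rose against day 1 by 2.67 ± 0.85 (limma adjusted p = 0.0171). Against day 3 it rose by 2.62 ± 0.79 (adjusted p = 0.0278), in a comparison where 4 members rose, with Lrp5, Fzd1 and Nkd2 (admitted by its day 10 values), where 12.5% of all genes rose and 9.65% fell. That call was lost without library 1 of day 10 (2.15, adjusted p = 0.073), without its library 2 (1.75, adjusted p = 0.0514), and without library 1, 3 or 4 of day 3 (adjusted p = 0.053, 0.0701 and 0.0622). Against day 5 the difference was 2.60 ± 0.79 (adjusted p = 0.0647). With the library number as a block, it passed at an adjusted p of 0.0214, which made 2 members called, against 7.19% of all genes called higher in that fit. Without library 1 of day 10, the difference of day 10 from day 1 was 2.20 (adjusted p = 0.0521) and without library 2 it was 1.80 (adjusted p = 0.0358). With neither, it was 0.66 (adjusted p = 0.128), and in libraries 3 and 4 of every day alone it was 0.70 (adjusted p = 0.0138). The gene lies at chr11:52252371-52283014 on the minus strand.

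Within the TCF/LEF family the balance differed between the day 10 libraries. Tcf7 made up 4.96% ± 0.24 of the family's CPM per kb on day 1 (SD, n = 3), 5.31% ± 1.2 on day 3 and 5.23% ± 3.2 on day 5 (n = 4 each). Its share was 51.9% and 75.8% in libraries 1 and 2 of day 10, and 8.10% and 5.60% in libraries 3 and 4. Tcf7l1, a member known mostly for repressing targets, held 29.5%, 15.4%, 54.6% and 62.1% in the 4 libraries of day 10, against 56.6% ± 2.7 on day 1. Tcf7l2 held 21.3% ± 11.3 on day 10, against 35.7% ± 2.7 on day 1. Tcf7 thus had the highest level per length of the family in libraries 1 and 2 of day 10, and Tcf7l1 in each of the other 13 libraries.

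Axin2 is a scaffold of the destruction complex and a widely used target that restrains the signal (chr11:108920349-108950783, plus strand). Its libraries held 0.122, 0 and 0.186 CPM on day 1, 0.110, 0.157, 0 and 0.142 CPM on day 3, and 0.338, 0.749, 0.183 and 0.0599 CPM on day 5. On day 10 they held 6.71, 5.57, 0.419 and 0.151 CPM, which came to 106, 97, 8 and 2 reads. Libraries 1 and 2 of day 10 thus held nearly all of its reads, and the lowest library of day 10 was below the highest of day 1. Pooled by day, 213 reads on day 10 against 5 on day 1 gave a ratio of read rates of 28.6, with a 95% interval of 12.1 to 89.1 that covers counting error only and not the spread between libraries. In the fit without a filter on low values, day 10 was above day 1 by 1.46 ± 0.53 (limma adjusted p = 0.0469), above day 3 by 1.45 ± 0.49 (adjusted p = 0.0623), and above day 5 by 1.20 ± 0.49 (adjusted p = 0.191). Both readings rested on libraries 1 and 2 of day 10. Without that pair the ratio was 2.72 (0.848 to 10.15, from 10 reads on day 10) and the fitted difference from day 1 was 0.22 (adjusted p = 0.388). Without library 1 alone they were 18.8 and 1.00 (adjusted p = 0.132), and without library 2 alone 21.4 and 1.08 (adjusted p = 0.128).

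Nkd2, which binds Dishevelled and dampens the signal (chr13:73818534-73847631, minus strand), followed the same libraries. It had 0.0609, 0.216 and 0.433 CPM on day 1, 0.110, 0.315, 0.372 and 0.285 CPM on day 3, and 0.113, 0.173, 0.427 and 0.0599 CPM on day 5. On day 10 it had 9.50, 18.2, 0.732 and 0.301 CPM. Library 4 of day 10 was within the range of day 1. The 485 reads of day 10 against 11 of day 1 gave a ratio of read rates of 29.7 (95% interval 16.4 to 59.8, counting error only). Without libraries 1 and 2 of day 10 it was 2.23 (0.996 to 5.22), without library 1 alone 26.7 and without library 2 alone 14.1. In the fit Nkd2 passed on day 10, by 1.91 ± 0.68 against day 1 (limma adjusted p = 0.0287) and by 1.87 ± 0.63 against day 3 (adjusted p = 0.044). The filter admitted the gene by the day on which it was high, so these values are a description. The call against day 1 was lost without library 1 of day 10, at 1.52 (adjusted p = 0.0846), without library 2, at 1.23 (adjusted p = 0.0676), and without both, at 0.29 (adjusted p = 0.303). It was also lost without any 1 library of day 1, at 1.81, 1.90 and 2.02 without libraries 1, 3 and 4 (adjusted p = 0.0809, 0.069 and 0.0559). The call against day 3 was lost under 21 of the 31 alternatives that tested the gene, and was 0.25 without libraries 1 and 2 of day 10 (adjusted p = 0.406).

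The spread of these 3 genes on day 10 was wide for the table. The highest library exceeded the lowest 30.8-fold for Tcf7, 60.4-fold for Nkd2 and 44.6-fold for Axin2. Over the 12093 tested genes above 0 in all 4 libraries of that day, the median of this ratio was 1.59 and the 95th percentile 4.23. The other 7 members were between 1.14-fold (Ctnnb1) and 2.25-fold (Fzd7). Within day 10, library 2 was the highest of the 4 for Tcf7, Nkd2 and Ctnnb1, and the lowest for Fzd2, Fzd7, Lrp6 and Lef1.

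Bglap, Sp7 and Ibsp, genes of the osteoblast, also differed between the same libraries. Bglap, which encodes osteocalcin and has near-identical copies between which reads may be split, had 7.73, 18.9, 0.366 and 0.226 CPM in libraries 1 to 4 of day 10, and averaged 0.0240 ± 0.0415 CPM on day 1 (SD, n = 3). Sp7, the transcription factor osterix, had 76.3, 214.5, 11.6 and 12.4 CPM on day 10 and averaged 2.82 ± 1.08 CPM on day 1. Ibsp, a bone matrix sialoprotein, had 324.3, 1824, 35.5 and 19.7 CPM on day 10. All 3 rose on day 10 against day 1, and without libraries 1 and 2 of day 10 Sp7 (1.81, limma adjusted p = 0.0256) and Ibsp (4.75, adjusted p = 0.000471) still did, whereas Bglap did not (0.34, adjusted p = 0.294). Of the 10 osteoblast and osteocyte markers listed, 8 were tested, 6 rose and none fell on day 10 against day 1. On day 1, 7 of the 10 averaged under 1 CPM. Bglap, at 0.0473 CPM on day 3 and 0.302 CPM on day 5, entered the test only through day 10. Its call adds no support, and the count includes a gene that had to differ. The summed level of the 10 markers was 16366, 64067, 7922 and 20116 CPM in the day 10 libraries, against 7701 to 11532 CPM on day 1. That sum did not divide the libraries as Bglap did, since library 4 lay above library 1. The summed level of 9 chondrocyte markers was 3854, 3157, 7750 and 16490 CPM on day 10, against 4722 to 5404 CPM on day 1. On day 10 against day 1, 3 of them rose and 1 (Sox9) fell, or 5 and none without libraries 1 and 2 of day 10. The summed level of 6 prehypertrophic and hypertrophic chondrocyte markers was 360.5, 874.9, 215.9 and 235.8 CPM on day 10, against 127.1 to 249.5 CPM on day 1. Of these 6, 4 rose and 1 fell on day 10 against day 1, or 3 and 1 without libraries 1 and 2 of day 10. The gene that fell in both fits was Col10a1, the collagen of hypertrophic chondrocytes (-1.49 without that pair, limma adjusted p = 0.00127). Col10a1 also fell on days 3 and 5 against day 1 (log2 differences -4.28 and -4.73), and rose on day 10 against day 5. On day 1, 2 of the 6 averaged under 1 CPM. The part of all these markers in the Tcf7, Axin2 and Nkd2 results was not tested.

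**Figure D4:**
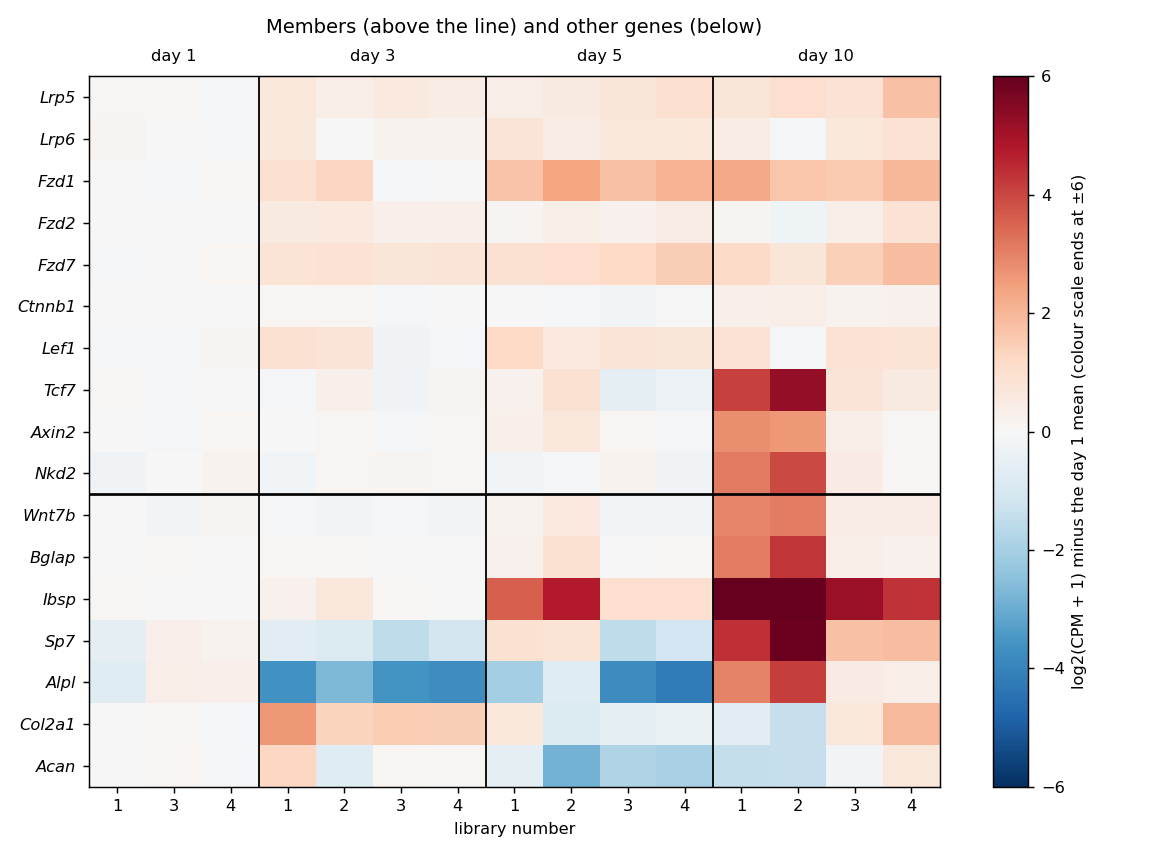
Level of the 10 members (above the line) and of 7 other genes (below it) in each of the 15 libraries, as log2(CPM + 1) minus the day 1 mean, with red for higher and blue for lower. Tcf7, Axin2, Nkd2, Wnt7b, Bglap, Sp7 and Alpl are reddest in libraries 1 and 2 of day 10, while Fzd1, Fzd7 and Lrp5 are red in all 4 libraries of that day.

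Across the 15 libraries, Pearson's r of log2(CPM + 1) was 0.97 between Tcf7 and Axin2, 0.97 between Tcf7 and Nkd2, and 0.95 between Axin2 and Nkd2. Without libraries 1 and 2 of day 10 these values were 0.75, 0.20 and 0.15 over 13 libraries, so the last 2 rested on that pair of libraries. Lrp5 and Fzd7 reached 0.86, or 0.91 without the pair, and Fzd1 and Lef1 0.75, or 0.84. Libraries share days, so these values are descriptions without a test.

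The genes most like Axin2 were Wnt7b (r = 0.99), a Wnt ligand, Chad (0.97), a cartilage matrix protein, Bglap (0.97), Tcf7 (0.97) and Fam167a (0.97). Those most like Tcf7 were Bglap (0.99), Wnt7b (0.98), the sodium and calcium exchanger Slc8a3 (0.98), Fam167a (0.97) and the sphingosine phosphate transporter Spns2 (0.97). Nkd2 was followed most closely by Fam167a (0.99), Grhl3 (0.99), the citrate transporter Slc13a5 (0.98), Ndufa4l2 (0.98) and the leptin receptor Lepr (0.97). The search took in only genes that passed the filter on low values. Fam167a averaged 0.174, 0.0324, 0.0141 and 17.8 CPM on days 1, 3, 5 and 10, and Slc13a5 0, 0.0197, 0 and 93.0 CPM. Both reached the filter only through day 10, as did Wnt7b, Chad, Bglap, Slc8a3, Spns2, Grhl3, Ndufa4l2 and Lepr. The filter thus favoured such neighbours, and their r adds no support. Wnt7b had 7.60, 8.27, 0.523 and 0.527 CPM on day 10, and its 281 reads against 6 on day 1 gave a ratio of read rates of 31.5 (95% interval 14.3 to 86.6, counting error only), or 3.86 (1.45 to 11.9) without libraries 1 and 2 of day 10. Lef1 had other neighbours, namely Rarres1 (0.88), Slc35f5 (0.86), Rhou (0.86), Fam21 (0.86) and Dact1 (0.85), a Dishevelled-binding protein. Each of these 5 remained at 0.84 or above without libraries 1 and 2 of day 10, whereas without that pair r of Fam167a was -0.07 with Axin2, 0.29 with Tcf7 and 0.27 with Nkd2. The other neighbours of Axin2 had values between 0.75 (Tcf7) and 0.88 (Bglap) without the pair, those of Tcf7 between 0.67 (Spns2) and 0.83 (Wnt7b), and those of Nkd2 between -0.12 (Lepr) and 0.60 (Grhl3). Outside the pair, Axin2, Wnt7b, Chad, Bglap and Tcf7 were all highest in library 2 of day 5. Axin2 had 13 reads there, Wnt7b 12 and Bglap 16, so these values lean on a single library with few reads.

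Levels per length placed the members in a wide order. On day 1 they were Ctnnb1 at 148.2, Fzd2 at 59.7, Lrp6 at 26.1, Fzd7 at 18.8, Lrp5 at 10.24, Fzd1 at 5.99, Tcf7 at 1.55, Lef1 at 0.865, Nkd2 at 0.0490 and Axin2 at 0.0186 CPM per kb. Only Nkd2 and Axin2 were neighbours whose libraries overlapped on that day. On days 3 and 5 Fzd7 averaged 33.0 ± 1.5 and 42.4 ± 7.5 CPM per kb and Lrp6 31.3 ± 6.4 and 41.2 ± 4.0, with overlap on both days. Fzd1 and Lrp5 overlapped on day 3, at 9.59 ± 4.6 and 14.8 ± 1.3, but on day 5 Fzd1 at 24.8 ± 5.3 lay above Lrp5 at 16.3 ± 2.7 without overlap. On day 10 the order by mean was Ctnnb1 (179.7), Fzd2 (76.0), Fzd7 (48.1), Lrp6 (37.2), Tcf7 (28.0), Fzd1 (22.9), Lrp5 (22.8), Nkd2 (1.49), Lef1 (1.45) and Axin2 (0.583). On that day all neighbours overlapped except Ctnnb1 with Fzd2 and Lrp5 with Nkd2. The Tcf7 mean on day 10 carried an SD of 33.9.

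Other genes of the pathway were counted in 8 lists with 114 symbols in the table, of which 82 were tested. On day 10 against day 1, 33 rose and 9 fell, where 24.3% of all genes rose and 25.1% fell, and the median log2 difference was 0.29 in the lists and -0.01 over all genes. On day 3 against day 1, 11 rose and 10 fell. On day 5 against day 1, 26 rose and 13 fell, and on day 10 against day 3, 33 rose and 2 fell. On day 5 against day 3, 10 rose and 1 fell, and on day 10 against day 5, 11 rose and none fell. Over all tested genes, day 10 against day 3 had 1514 that rose and 1169 that fell, and with CPM by total count the split was 1313 to 1539. Without libraries 1 and 2 of day 10, 34 rose and 10 fell on day 10 against day 1, where 25.4% of all genes rose and 25.6% fell. The calls of Wnt7b (0.45, limma adjusted p = 0.143), Tnfrsf19 (0.38, adjusted p = 0.361), Id2, Ctnnbip1 and Gsk3a, described below, were lost in that fit. Of the other genes described below, Lgr5 (5.32), Rnf43 (1.55), Cdh11 (3.02) and Sfrp4 (6.81) kept their calls there (log2 differences), with folds that moved by more than 1.5 times, and among Dishevelled and destruction complex genes 4 rose and 1 fell. Unless stated, the lists and markers below were read in all libraries. Several list genes were near 0 on day 1 and passed the filter on low values through later days, so the counts include genes that had to differ.

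Among receptors outside the members, 6 of 12 tested rose on day 10 against day 1 and 1 fell. Ror1, a receptor for Wnt5a, averaged 5.80 ± 1.44 CPM on day 10 and 0.514 ± 0.272 CPM on day 1 (log2 difference 2.16 ± 0.25, limma adjusted p = 7.49e-06). Fzd8 rose by 1.52 ± 0.25 and Fzd4 by 1.51 ± 0.31, and Ryk fell by 0.53 on the log2 scale. Among regulators of receptor turnover, 4 of 6 rose and 1 fell. The R-spondin receptor Lgr5 averaged 391.0 ± 181 CPM on day 10 and 12.4 ± 0.744 CPM on day 1 (4.72 ± 0.35, adjusted p = 1.73e-07), whereas Lgr4, its close relative, fell to 78.1 ± 7.99 CPM, against 184.1 ± 40.0 CPM on day 1. The R-spondin Rspo2 rose by 2.69 ± 0.35, and Rnf43, a ligase that removes Frizzleds from the surface, by 2.18 ± 0.42.

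Of 16 tested genes of Dishevelled and the destruction complex, 2 rose (Csnk1e by 0.77 ± 0.16 and Dvl2 by 0.51 ± 0.15) and 1 fell (Gsk3a, by 0.28 on the log2 scale) on day 10 against day 1. Among 16 nuclear partners of beta-catenin, 4 rose and 2 fell. The co-activator Pygo1 rose by 1.89 ± 0.22, and the inhibitors Cby1 and Ctnnbip1 fell by 0.67 and 0.35. Among 7 junction partners, 3 rose and 1 fell, or 4 and 2 without libraries 1 and 2 of day 10. Cadherin 11 (Cdh11) rose by 3.96 ± 0.60, with 40.7 ± 48.5 CPM on day 10 and 0.765 ± 0.211 CPM on day 1, and plakoglobin (Jup) by 2.45 ± 0.22, while P-cadherin (Cdh3) fell by 0.95.

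Of 15 other reported targets of canonical Wnt tested, 8 rose and 2 fell on day 10 against day 1, with a median log2 difference of 0.75. Without libraries 1 and 2 of day 10, 6 rose and 2 fell, and the median was 0.39. Nkd1, the relative of Nkd2, averaged 12.0 ± 4.92 CPM on day 10 and 1.69 ± 0.170 CPM on day 1, and its libraries of day 10 held 9.24, 8.72, 10.9 and 19.3 CPM (2.21 ± 0.28, limma adjusted p = 1.81e-05). Unlike its relative, it was not highest in libraries 1 and 2. Tnfrsf11b, which encodes osteoprotegerin, a decoy receptor that restrains osteoclasts, rose by 2.65 ± 0.48. Tnfrsf19 averaged 10.5 ± 9.64 CPM on day 10 and 2.45 ± 0.737 CPM on day 1, with the highest value, 23.8 CPM, in library 2 of day 10 (1.37 ± 0.49, adjusted p = 0.0307). Fosl1 and Id2 fell by 1.58 and 0.95 on the log2 scale.

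Of 5 Wnt ligands tested, 4 rose on day 10 against day 1, whereas 3 rose and 1 fell without libraries 1 and 2 of day 10. Wnt16 averaged 150.5 ± 64.0 CPM on day 10 and 3.09 ± 0.706 CPM on day 1 (5.12 ± 0.39, limma adjusted p = 2.07e-07), and the non-canonical ligand Wnt5a rose by 1.92 ± 0.32. Of 5 secreted antagonists tested, 2 rose and 1 fell, or 3 and 1 without that pair of libraries. Sfrp4, which binds Wnt proteins, averaged 73.2 ± 52.1 CPM on day 10 and 0.0612 ± 0.0609 CPM on day 1, Dkk2, which binds the LRP co-receptors, 31.5 ± 16.6 CPM and 0.293 ± 0.142 CPM, and Dkk3 fell by 0.98.

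**Figure D5:**
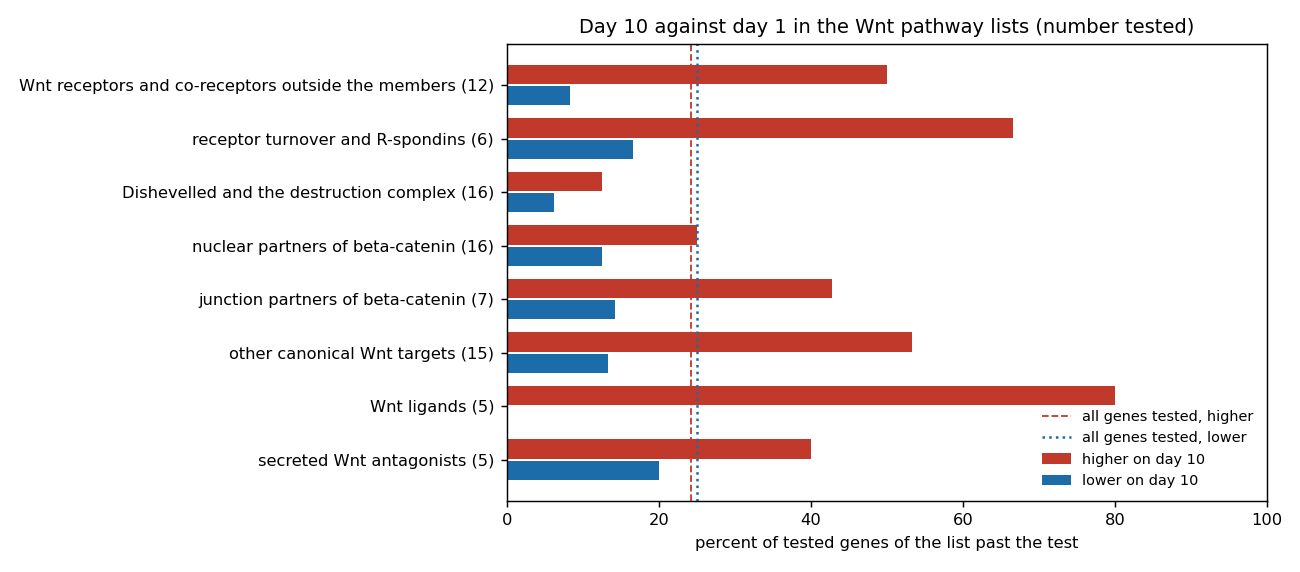
Percent of tested genes of 8 Wnt pathway lists that passed the test on day 10 against day 1, higher in red and lower in blue, with the number tested in brackets; the dashed and dotted lines mark 24.3% higher and 25.1% lower over all genes tested. The red bars pass the dashed line in every list but Dishevelled and the destruction complex, and for nuclear partners they only just reach it.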

How the data were processed

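The values are the authors' deposited signal: reads per gene divided by library size and scaled by normalization factors (CPM). The submitters' processing notes name STAR, featureCounts, edgeR and the build GRCm38; the annotation, the strand setting and all versions were not given in the sources used here. All values were whole multiples of what 1 read is worth in their library (100%, tolerance 0.001), so read counts were recovered, and libraries held 12492537 to 18841621 reads. That makes 1 read worth 0.0523 to 0.0787 CPM, which limits Axin2 and Nkd2.

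The main test was limma 3.58.1 (R 4.3.3) with a trended prior on log2(CPM + 1), pseudocount 1, over 12109 genes with Benjamini-Hochberg adjustment at 0.05. It was also run on simulated counts drawn independently for each library. That run could not test the fit where libraries are related, as some of these may be. The edgeR 4.0.16 quasi-likelihood test and DESeq2 1.42.0 on the recovered reads were alternatives. On day 10 against day 1 they called 3131 and 3332 genes higher, and limma 2939. Other alternatives changed the pseudocount, the filter, the scaling, the prior and the libraries used, averaged libraries 3 and 4, or added the library number as a block. Libraries were assigned to days by column name, and all 15 columns were used. Values per kb divide by the annotated exon length in GENCODE M21, in which 23661 of 24499 symbols matched; at most 0.722% of the 50-base windows of a member's exons, in Lrp6, recurred elsewhere in the transcripts. Sequences are from RefSeq (GRCm38.p6).

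Library numbers were checked for pairing through deviations from the day means. Of 21 same-number pairs, 17 correlated above 0.1 (median 0.26), against 12 of 63 pairs with different numbers (median -0.09). Every same-number pair was above 0.1 for day 3 against 1, 5 against 1, 5 against 3 and 10 against 5, so the numbers were taken to pair the libraries there. Some pairs across numbers 3 and 4 were as close. Library 4 of day 3 had 0.55 with library 3 of day 5 and 0.42 with library 4 of day 5. Across numbers 1 and 2, library 1 of day 1 had 0.20 with library 2 of day 3, but library 1 of day 3 had -0.18 with library 2 of day 5. Subtracting day means can lower the values of different-number pairs. A grouping of 1 and 2 against 3 and 4 was not tested apart from pairing by number.

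The members and lists were chosen with earlier results of these data known. Named genes are all members, the 5 genes most correlated with Axin2, Lef1, Tcf7 and Nkd2 without predicted genes, of each pathway list up to 3 called genes at either end of the day 10 against day 1 difference, and leading cell type markers.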

Additional observations from a re-analysis of the deposited data

Results flagged for a closer look

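Of the 30 sets of 4 libraries checked, formed by the 10 members on days 3, 5 and 10, 1 held a library far from the others. Lef1 had 7.23 CPM in library 2 of day 10, against 14.7, 14.8 and 14.4 CPM in libraries 1, 3 and 4, so that the gap took 0.951 of the whole range, above Dixon's 95% critical value for 4 values. Chance gives such a gap in about 1 of 20 sets. Library 2 of day 10 was also the highest of that day for Tcf7, at 194.8 CPM, and for the osteoblast gene Ibsp, at 1824 CPM. Their part in the Lef1 value was not tested.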

How the results depend on the processing

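The number of members called was recomputed under 32 alternatives. On day 3 against day 1 it was 1, and 2 with DESeq2, with total-count scaling and with the library number as a replicate block. Over all genes tested, 1896 were called higher in the reported fit, and 2264, 1823 and 2394 in those settings, in that order. On day 5 against day 1 it was 5 (3052 of all genes higher), and 3 with libraries 3 and 4 averaged (2399 higher). On day 5 against day 3 it was 1 (618 of all genes higher), and 0 with those averaged (50 higher). Between days 10 and 1 it was 6 (2939 of all genes higher), and 5 to 8 across methods, with 8 by DESeq2 (3332 higher) and 7 by edgeR (3131 higher). On day 10 against day 3 it was 4 (1514 of all genes higher), then 6 with DESeq2 (1973 higher), and 2 with no filter and with libraries 3 and 4 averaged (683 higher when averaged). On day 10 against day 5 it was 1, then 3 with edgeR and with DESeq2, 2 with the block, and 0 with no filter, with total-count scaling and with libraries 3 and 4 averaged. Over all genes, 454 were called higher there in the reported fit, 522 with edgeR, 912 with DESeq2 and 871 with the block. With total-count scaling 396 were, and with libraries 3 and 4 averaged 81. Without single libraries or all of 1 number, the counts ranged between 0 and 3 (day 3 against 1), 2 and 5 (5 against 1), 3 and 7 (10 against 1), 0 and 1 (5 against 3), 1 and 4 (10 against 3), and 0 and 3 (10 against 5). Counts over all genes are not given for these fits or for the fit with no filter, so those member counts have no share beside them.

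Added after seeing the data, libraries 1 and 2 alone gave 0 (day 3 against 1), 2 (5 against 1), 0 (5 against 3), 2 (10 against 3) and 2 (10 against 5). Libraries 3 and 4 alone gave 4 on day 5 against day 3, and leaving out libraries 1 and 2 of day 10 gave 3 on day 3 against day 1 and 0 on day 10 against day 5. Counts over all genes are not given beside these either. With libraries 1 and 2 alone, Fzd2 on day 10 against day 1 reversed to -0.0714. The cause of these changes was not tested. Axin2 in the fit without a filter lost its call on day 10 against day 1 without library 1, library 2 or both.

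With the replicate block, 7 members were called on day 10 against day 1 (3368 of all genes higher) and 6 on day 10 against day 3 (2038 higher). In these comparisons not every same-number pair was above 0.1. Where every pair was, the block changed only the calls of Lrp5 on day 3 against day 1 and Tcf7 on day 10 against day 5. Over 27 of 54 member comparisons, those past the threshold in the reported fit or in at least 1 alternative other than those added, 690 values kept direction and side of the threshold, 122 lost the call, 48 gained it and 1 reversed. Fzd1 and Fzd7 kept their calls on days 5 and 10 against day 1 under all 32.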
